A study of Mus musculus with 2 samples.

Results

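Aminoacyl-tRNA synthetases join each amino acid to its tRNA, and the genes described here are the nuclear genes of these enzymes and of the scaffold proteins Aimp1 and Aimp2. Members were the protein-coding genes of the RefSeq annotation of GRCm38.p6, the assembly of mm10, whose symbol has the form of a synthetase gene and which encode such an enzyme or scaffold. This gave 39 of 21887 protein-coding genes, of which 18 encode cytosolic enzymes, 17 mitochondrial enzymes, 2 enzymes used in both compartments (Gars and Kars) and 2 scaffolds. A gene was counted as having a peak where any base of a deposited peak lay within 1000 bp of either annotated end of the gene.

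The data are KAT8 CUT&Tag peak lists from bone marrow-derived macrophages of mice, differentiated in M-CSF at 20 ng/ml. One group had been stimulated for 2 h with 100 ng/ml R848, a small molecule that activates TLR7 (1 library), and the other had been left untreated (1 library). The design asks which genes KAT8 occupies before and after this stimulus. CUT&Tag uses an antibody to bring a transposase to a bound protein, which then cuts and tags the DNA around it. The R848 list held 44772 peaks and the untreated list 52001, and the lowest background was 2.62 fragments per position in the R848 library and 3.37 in the untreated library, so the R848 library was the shallower by this measure. With 1 library a group, no difference below has a replicate check or a p-value. Of 10 macrophage marker genes 4 had a gene-end peak in each list, where 24.4% (R848) and 28.8% (untreated) of all genes did. Cebpa, Cebpb and Cd68 had one in both lists. Mertk had one in the R848 list only (fold 2.76, −log10 q 0.581) and Spi1 in the untreated list only (fold 2.77, −log10 q 1.01). Csf1r, Adgre1, Itgam, Lyz2 and Fcgr1 had one in neither list. Of 7 lymphoid markers, Cd3d had one in the R848 list (fold 2.76, −log10 q 0.581) and 0 had one in the untreated list.

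KAT8 (also called MOF) is the acetyltransferase of the MSL and NSL complexes, and the NSL complex is known to bind promoters of housekeeping genes. Cytosolic synthetases feed general protein synthesis, and several of them sit with Aimp1 and Aimp2 in a multi-synthetase complex. Mitochondrial synthetases are encoded by separate nuclear genes, mostly marked by a final 2 in the symbol, and charge the tRNAs that translate the respiratory chain subunits made inside mitochondria. When charging fails, uncharged tRNA activates the kinase GCN2, which leads to translation of ATF4, a transcription factor that raises expression of several cytosolic synthetase genes.

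KAT8 peaks lay at the ends of a minority of synthetase genes after R848 and of more of them in untreated cells. In the R848 list 11 of 39 members (28.2%, 95% exact binomial interval 15 to 44.9) had a gene-end peak, where 24.4% of all protein-coding genes had one. In the untreated list 20 of 39 (51.3%, 34.8 to 67.6) had one, where 28.8% of all genes did. All such intervals reflect counting error alone, and members are not replicates of a condition. Both lists had a peak at 8 members, Rars2, Fars2, Nars2, Qars, Vars, Yars, Cars and Lars2 (17.3% of all genes). The R848 list alone had one at 3 members, among them Sars and Hars (7.11% of all genes). The untreated list alone had one at 12, Ears2, Vars2, Sars2, Yars2, Pars2, Cars2, Wars2, Aars, Lars, Nars, Kars and Aimp1 (11.5% of all genes). The remaining 16 had none, and these were Aars2, Hars2, Iars2, Mars2, Tars2, Dars, Eprs, Farsa, Farsb, Iars, Mars1, Rars, Tars, Wars, Gars and Aimp2.

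Most of the untreated peaks were weak by the caller's q-value, its p-value adjusted over all candidate positions, and by fold, the fragments overlapping at the summit over the local background. Of the 11 members with an R848 peak, 10 had one with a q-value of 0.05 or less (90.9%, against 61.8% of all genes with an R848 peak). Of the 20 with an untreated peak, 8 did (40.0%, against 57.9% of all genes with an untreated peak). With that threshold in both lists, 10 members had an R848 peak (25.6%, against 15.1% of all genes) and 8 had an untreated peak (20.5%, against 16.7%). This order depends on where the cut falls. The untreated peaks of Aars, Lars, Nars, Nars2, Pars2 and Yars2, each of 12 fragments, fell just short of it (−log10 q 1.26). At that threshold 5 were called in both lists (10.5% of all genes), 5 in the R848 list only (4.6%) and 3 in the untreated list only (6.15%). At a −log10 q of at least 5, the R848 list held 3 members (4.39% of all genes), Rars2, Qars and Lars2. The untreated list then held 5 (5.97%), these and Ears2 and Fars2. None was then in the R848 list only (1.01% of all genes), 2 were in the untreated list only (2.6%) and 3 in both (3.37%). Leaving out Lars2, whose peak is described apart, the median of the members' highest folds was 3.73 in the R848 list and 2.98 in the untreated list, beside 3.32 and 3.20 over all genes with a peak. A fold is relative to its own library's background, so folds of the lists are set side by side only.

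**Figure D1:**
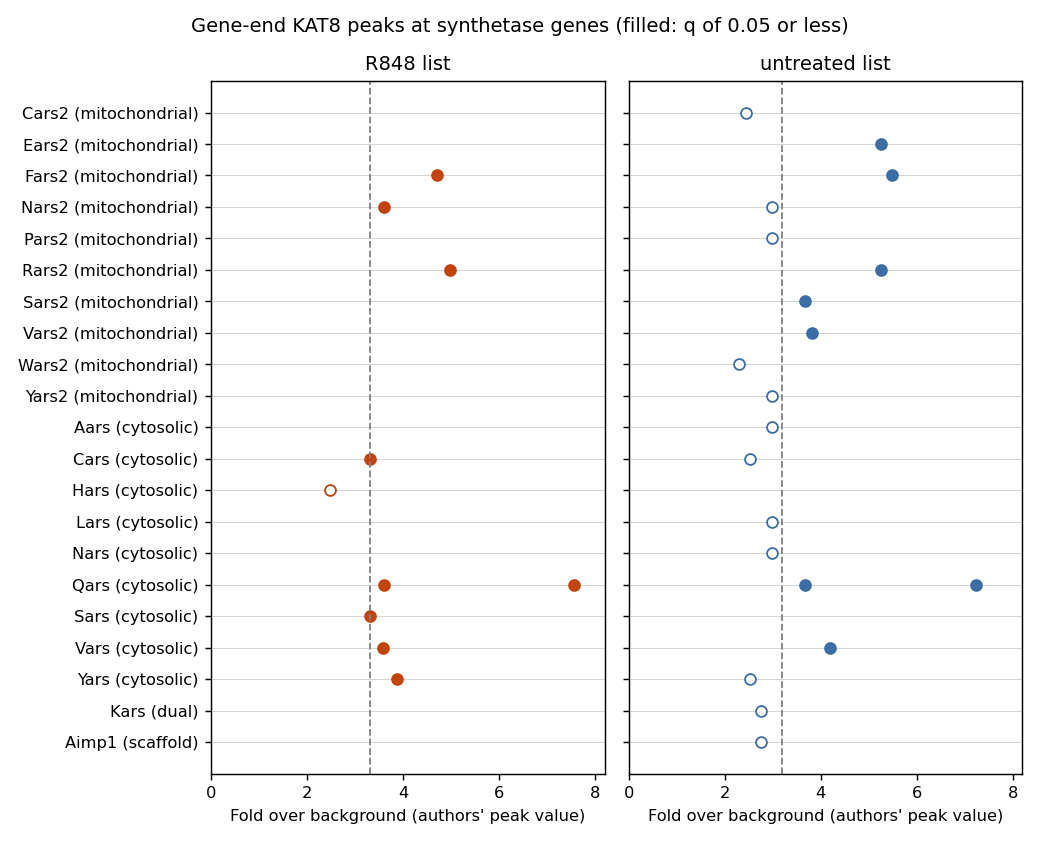
Fold over background of each gene-end peak (x axis, the authors' peak value) for 21 members other than Lars2 that had one, R848 list left and untreated list right. Filled points have a q-value of 0.05 or less, open points do not, and the dashed lines mark the medians over all genes with a peak, 3.32 and 3.20. Qars has points for its own start and for a peak next to Qrich1, at folds of 7.56 and 7.24.

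Among mitochondrial enzymes, peaks were found in the R848 list at 5 of 17 genes (29.4%, 10.3 to 56.0) and in the untreated list at 11 of 17 (64.7%, 38.3 to 85.8). Cytosolic enzymes had 6 of 18 (33.3%, 13.3 to 59.0) in the R848 list and 7 of 18 (38.9%, 17.3 to 64.3) in the untreated list. The intervals of the classes overlapped in both lists. With peaks of q of 0.05 or less, mitochondrial enzymes had 5 in the R848 list and 6 in the untreated list. Cytosolic enzymes had 5 and 2, where 15.1% and 16.7% of all genes had such a peak. Just short of this threshold (−log10 q 1.26) were the untreated peaks of cytosolic Aars, Lars and Nars and of mitochondrial Nars2, Pars2 and Yars2. Without Lars2 the median fold was 4.28 in the R848 list and 3.32 in the untreated list for mitochondrial enzymes, and 3.44 and 2.98 for cytosolic enzymes. Of the 2 dual genes, Kars had an untreated peak, and of the 2 scaffolds, Aimp1 did, each with a fold of 2.75. Of the 39 members, 10 belong to the multi-synthetase complex, in which these scaffolds hold synthetases together. Eef1e1, a further component, is outside the symbol rule and is given with the related genes. Of the 10, 1 had an R848 peak (Qars, 95% interval of the share 0.253 to 44.5). An untreated peak was found at 4 (Qars, Lars, Kars and Aimp1, 40.0%, 12.2 to 73.8). These intervals span the shares over all genes, 24.4% and 28.8%. By catalytic class, 6 of 18 class I genes had an R848 peak (33.3%, 13.3 to 59.0) and 12 an untreated peak (66.7%, 41.0 to 86.7). Of 18 class II genes, 5 had an R848 peak (27.8%, 9.69 to 53.5) and 7 an untreated peak (38.9%, 17.3 to 64.3), and the intervals of the classes overlapped in each list.

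**Figure D2:**
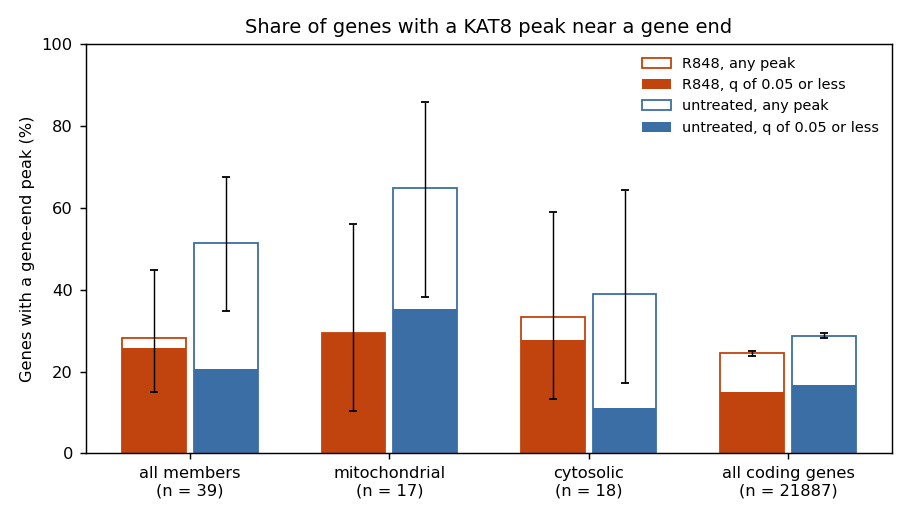
Share of genes with a gene-end peak (y axis, percent) among all 39 members, the 17 mitochondrial and 18 cytosolic enzymes, Lars2 included, and all 21887 protein-coding genes, with R848 left of untreated. The outlined bar counts any peak and its error bar is the 95% exact binomial interval, and the filled part counts peaks of q of 0.05 or less. Open parts are tallest in the untreated bars, where 8 of the 20 members with a peak reach that threshold.

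Lars2 aside, the strongest peaks at mitochondrial synthetase genes covered the start of a synthetase gene that has a neighbour's start on the opposite strand within 286 bp. Promoter sequences from RefSeq (GRCm38.p6, 250 bases before to 50 after the RNA start, 5′ to 3′) are shown for Rars2 and Fars2, which with Lars2 aside had the highest R848 folds of these enzymes, for Ears2, whose untreated fold equalled that of Rars2 and which had no R848 peak, and for Yars, a cytosolic gene with peaks in both lists. Capitals mark matches to the motifs searched on either strand, named after the sequences. The stretches are chr4:34614707-34615006 (plus strand, Rars2), chr13:36117393-36117692 (plus, Fars2), chr7:122067037-122067336 (minus, Ears2) and chr4:129189653-129189952 (plus, Yars).
Rars2: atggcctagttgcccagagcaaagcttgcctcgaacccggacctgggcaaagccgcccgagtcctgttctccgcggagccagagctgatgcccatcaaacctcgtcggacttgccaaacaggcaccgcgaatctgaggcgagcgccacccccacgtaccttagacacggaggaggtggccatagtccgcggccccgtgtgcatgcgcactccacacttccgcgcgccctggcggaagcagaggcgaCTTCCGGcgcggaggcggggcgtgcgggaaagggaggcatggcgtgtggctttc
Fars2: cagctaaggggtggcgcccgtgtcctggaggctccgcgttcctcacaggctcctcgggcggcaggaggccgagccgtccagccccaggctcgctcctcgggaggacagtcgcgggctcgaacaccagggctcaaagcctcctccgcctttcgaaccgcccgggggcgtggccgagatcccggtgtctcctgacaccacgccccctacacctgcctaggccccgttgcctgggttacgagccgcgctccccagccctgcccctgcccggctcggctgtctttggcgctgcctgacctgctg
Ears2: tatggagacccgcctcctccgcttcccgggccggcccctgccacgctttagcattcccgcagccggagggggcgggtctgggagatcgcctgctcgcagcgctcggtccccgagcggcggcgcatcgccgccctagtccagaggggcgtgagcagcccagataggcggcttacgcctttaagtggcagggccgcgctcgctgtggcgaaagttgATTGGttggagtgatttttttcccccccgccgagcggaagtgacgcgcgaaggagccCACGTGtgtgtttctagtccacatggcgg
Yars: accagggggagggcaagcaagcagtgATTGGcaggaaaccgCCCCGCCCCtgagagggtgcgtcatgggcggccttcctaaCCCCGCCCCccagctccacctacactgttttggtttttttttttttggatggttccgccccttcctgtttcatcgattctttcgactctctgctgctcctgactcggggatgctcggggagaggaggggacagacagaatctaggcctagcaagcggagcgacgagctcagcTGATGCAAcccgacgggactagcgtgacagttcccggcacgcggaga
The capitals are an ETS motif (CCGGAAG) in Rars2, a CCAAT box and an E-box (CACGTG) in Ears2, and in Yars a CCAAT box, a pair of SP/KLF motifs (GGGGCGGGG) and TGATGCAA, a C/EBP-ATF composite of the kind bound by ATF4. In Fars2 none of the 9 motifs searched was found in this window.

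Rars2, the mitochondrial arginyl-tRNA synthetase, had a peak of fold 4.97 (−log10 q 5.55, 17 fragments at the summit) in the R848 list and of fold 5.26 (−log10 q 7.80, 22 fragments) in the untreated list. Scaled to the R848 library by the ratio of the lowest backgrounds, as for all pileups given at equal background, the untreated pileup was 17.1 fragments (95% exact Poisson interval 10.7 to 25.9), against 17 (9.90 to 27.2) in the R848 library. The R848 peak spans chr4:34614687-34615080 and the untreated peak chr4:34614690-34615203, and both cover the start of Rars2 and that of Orc3, an origin recognition complex gene, which are 15 bp apart. The pileups of the libraries at this shared start were thus within each other's interval.

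Fars2 encodes the mitochondrial phenylalanyl-tRNA synthetase. Its peak had a fold of 4.70 (−log10 q 4.78, 16 fragments) in the R848 list and of 5.49 (−log10 q 8.62, 23 fragments) in the untreated list, or 16 (9.15 to 26.0) against 17.9 (11.3 to 26.8) fragments at equal background. The start of Lyrm4, a gene of iron-sulphur cluster assembly, lies 286 bp away on the opposite strand, and the summits lay 49 bp (R848) and 72 bp (untreated) from the Fars2 start. In both libraries the summit was nearer to the Fars2 start than to that of Lyrm4.

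Nars2, the mitochondrial asparaginyl-tRNA synthetase, had no listed opposite-strand start within 1000 bp. Its folds were 3.59 (12 fragments, −log10 q 2.07) in the R848 list and 2.98 (12 fragments, −log10 q 1.26) in the untreated list, with summits 28 and 186 bp from the RNA start. At equal background this was 12 (6.20 to 21.0) against 9.33 (4.82 to 16.3) fragments. The R848 peak reached a q of 0.05 and the untreated peak did not.

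Ears2, the mitochondrial glutamyl-tRNA synthetase, was the strongest member peak found in 1 list only. The untreated peak (chr7:122067023-122067440, mm10) held 22 fragments at its summit (fold 5.26, −log10 q 7.80), or 17.1 (10.7 to 25.9) at the R848 background, and no R848 peak overlapped it or lay at this gene. The lowest pileup called in the R848 list was 7 fragments. The summit lay 2 bp from the start of Ubfd1, which starts on the opposite strand 112 bp from Ears2. Of 799 genes with an untreated gene-end peak of this fold or higher, 16 (2.0%) had no R848 gene-end peak, and 12 of these (1.5% of the 799) had no overlapping R848 peak outside the window either. Ears2 was picked as the strongest member peak in 1 list only, so these shares give scale and do not measure significance.

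Windows of 3000 bp around the gene ends gave 15 members with an R848 peak (32.9% of all genes) and 23 with an untreated peak (38.0%). By these windows 11 members had a peak in both lists (23.0% of all genes), 4 had one in R848 cells alone (9.89%) and 12 in untreated cells alone (15%).

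At 6 further mitochondrial genes a gene-end peak was found in the untreated list alone. Vars2, the valyl enzyme, had a fold of 3.81 (17 fragments, −log10 q 3.56) near an end of Gtf2h4, a TFIIH subunit gene. Sars2, the seryl enzyme, had 3.66 (15 fragments, −log10 q 2.85), and its start is 147 bp from that of Mrps12, a mitochondrial ribosomal protein gene. These passed a q of 0.05, as did Ears2. The other 4 did not, and their folds were 2.98 with 12 fragments for Yars2 and Pars2, the tyrosyl and prolyl enzymes, 2.43 with 10 for Cars2, the cysteinyl enzyme, and 2.29 with 9 for Wars2, the tryptophanyl enzyme. Pileups are whole numbers on a nearly constant background, so the same fold recurs at several genes. The Wars2 peak touched the window only at its edge, with its summit 1024 bp from the gene end and 41 bp from the RNA start listed for this gene.

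Among cytosolic genes, Qars, the glutaminyl enzyme and a member of the multi-synthetase complex, had peaks at both ends in both lists. At its own start the fold was 3.59 (12 fragments, 6.20 to 21.0) in the R848 list and 3.66 (15 fragments, 11.7 at equal background, 6.53 to 19.2) in the untreated list. The wide peak beyond its other end (chr9:108516598-108518168 in the R848 list) had folds of 7.56 and 7.24 and pileups of 46 (33.7 to 61.4) and, at equal background, 42.0 (31.5 to 54.8) fragments. It covers the start of Qrich1, and it is the only cytosolic member peak with a −log10 q of 5 or more, 23.6 in the R848 list and 26.5 in the untreated list. The strength of Qars by the gene-end rule therefore comes from a peak at the start of its neighbour.

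Vars, the cytosolic valyl enzyme, had folds of 3.57 (12 fragments, −log10 q 2.07) in the R848 list and 4.19 (18 fragments, 14 at equal background, −log10 q 4.51) in the untreated list, at an end near D17H6S56E-5. Yars, the tyrosyl enzyme, had 3.87 (13 fragments, 6.92 to 22.2, −log10 q 2.69) in the R848 list and 2.52 (10 fragments, 7.77 at equal background, 3.73 to 14.3, −log10 q 0.462) in the untreated list. Cars, the cysteinyl enzyme, had 3.32 (11 fragments, 5.49 to 19.7, −log10 q 1.51) and 2.52 (10 fragments, 7.77 at equal background, 3.73 to 14.3, −log10 q 0.462). For each of the 8 overlapping peaks other than that of Lars2, the scaled untreated pileup lay inside the R848 interval. These peaks were chosen because both lists called them, and most of the intervals are wide. The overlap therefore does not show that occupancy was equal. Overlapping peaks had their summits 14 bp apart at Yars and up to 223 bp apart at Cars.

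**Figure D3:**
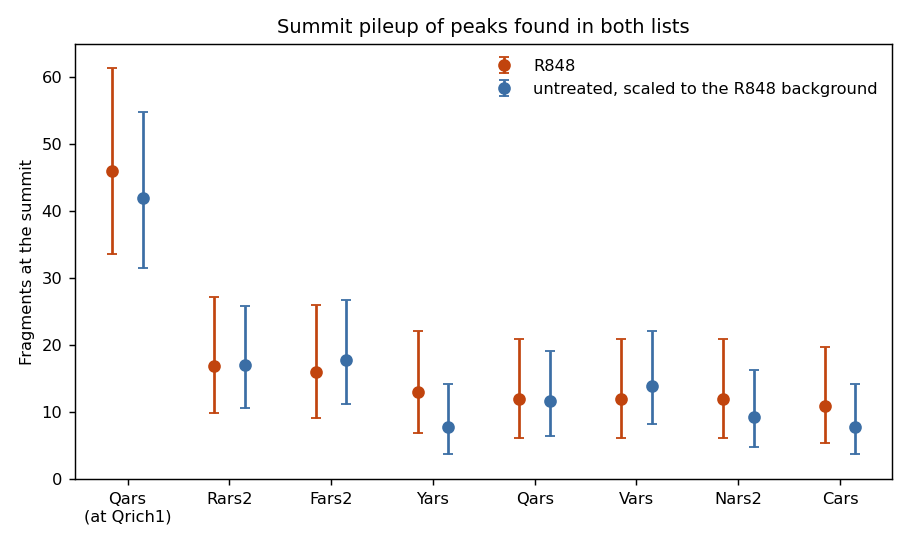
Fragments at the summit (y axis) of the 8 overlapping gene-end peaks other than that of Lars2, with R848 on the left of each pair and untreated, multiplied by the ratio of the lowest backgrounds, on the right. Bars are 95% exact Poisson intervals and cover counting error only. The pairs run from 46 against 42.0 fragments at the Qrich1 side of Qars to 11 against 7.77 at Cars.

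Gene-end peaks at cytosolic genes in 1 list only had at most 12 fragments. In the R848 list these were Sars, the seryl enzyme (fold 3.32, 11 fragments, −log10 q 1.51), whose summit lay 21217 bp from the RNA start and 822 bp beyond the other end, and Hars, the histidyl enzyme (2.47, 8 fragments, −log10 q 0.233), at an end near Dnd1. In the untreated list they were Aars, Lars and Nars, the alanyl, leucyl and asparaginyl enzymes, each with 12 fragments (fold 2.98, −log10 q 1.26). The peaks of Kars, the lysyl enzyme, whose start is 5 bp from that of Terf2ip, a telomere protein gene, and of Aimp1, near the start of Tbck, each had 11 fragments and a −log10 q of 0.831. None of these untreated peaks reached a q of 0.05. Scaled to the R848 background, the pileups of the 12 members with an untreated peak only ranged up to 17.1 fragments with a median of 9.33. Of the 12, 11 reached the lowest pileup called in the R848 list, as did 2267 of all 2509 coding genes with an untreated peak only. Most called peaks pass so low a bar, and whether library depth contributes was not tested.

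Lars2, the mitochondrial leucyl-tRNA synthetase, stood apart from all other members. Its peak (chr9:123461783-123462258 in the R848 list, 123461783 to 123462261 in the untreated list, mm10) had folds of 40.5 and 40.7, with 3885 (3760 to 4010) fragments in the R848 library and 4519 (4390 to 4650) in the untreated library. The local background there was 94.9 fragments in the R848 library and 110 in the untreated library, so the scaling by lowest backgrounds used for the other members was not applied. By fold it ranked 18th of all R848 peaks and 17th of all untreated peaks. Its summits coincided, 95080 bp from the Lars2 RNA start and 668 bp inside the other end of the gene, and no peak lay within 1000 bp of the RNA start in either list. No end of another coding gene lay within 1000 bp of this peak. Whether repeated or high-signal sequence contributes there was not tested.

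The gene-end rule missed peaks where the outermost annotated end is not the listed RNA start. The RefSeq promoter table lists a start for 29 of the 39 members. Within 1000 bp of a listed start, 7 of the 29 (24.1%) had an R848 peak and 15 (51.7%) an untreated peak, where 24.1% and 28.7% of 17492 genes with a listed start did. Both lists had one at 6 members (17.9% of all), the R848 list only at 1 (6.25%) and the untreated list only at 9 (10.8%). Eprs, the fused glutamyl- and prolyl-tRNA synthetase, had overlapping peaks at its start in both lists, with folds of 2.49 (8 fragments) in the R848 list and 2.98 (12 fragments) in the untreated list and summits 46 and 86 bp from the start. Tars2, the mitochondrial threonyl enzyme, had an R848 peak of fold 3.59 (12 fragments, −log10 q 2.07) with its summit 165 bp from the start and no untreated peak there. Aars had an untreated peak of fold 2.52 (10 fragments) 32 bp from its listed start, besides the one at its outer end. Counting the whole gene and 1000 bp around it, 20 members had an R848 peak (51.3%, against 44.5% of all genes) and 25 an untreated peak (64.1%, against 49.1%). All 16 members with a summit within 1000 bp of a listed start had it within 188 bp of that start.

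**Figure D4:**
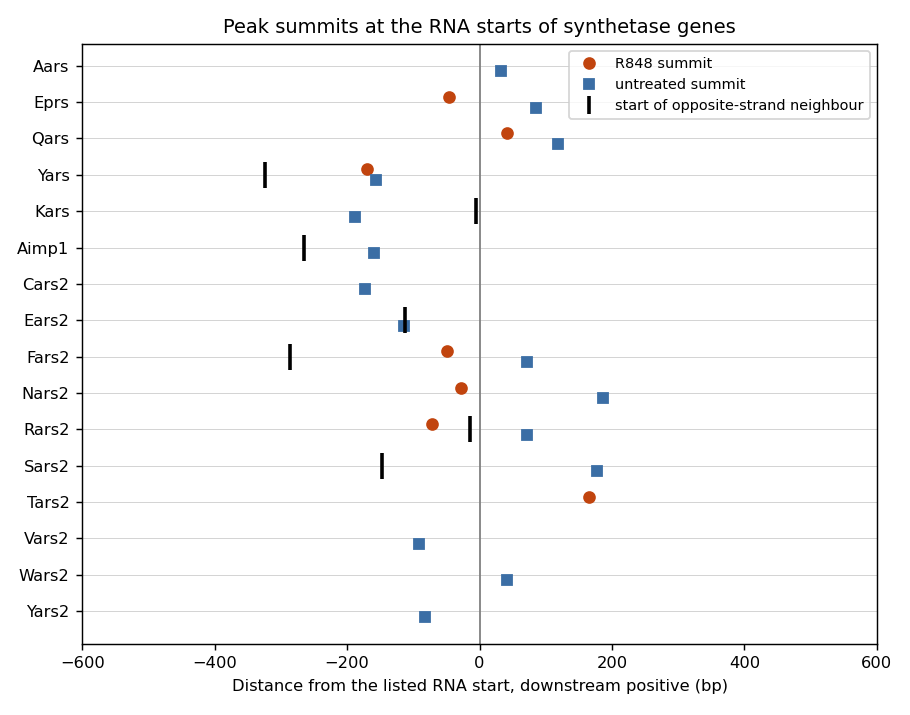
Position of peak summits (x axis, bp from the listed RNA start, downstream positive) for the 16 members with a summit within 1000 bp of a listed start. Circles are R848 summits, squares untreated summits, and vertical ticks the start of a neighbour on the opposite strand. The summits lie 28 to 188 bp from the start, and that of Ears2 lies 2 bp from the start of Ubfd1.

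Starts of neighbouring genes were common at these loci. Of the 29 members with a listed start, 8 (27.6%) had a start of another coding gene on the opposite strand within 1000 bp, where 9.61% of all 17492 genes did. Among these 8 (Rars2, Fars2, Ears2, Sars2, Yars, Kars, Aimp1 and Aimp2), 3 had an R848 gene-end peak and 7 an untreated one. Aimp2 was the one of these 8 with a peak in neither list, and its start is 162 bp from that of Pms2, a mismatch repair gene. Of the other 21 members 4 had an R848 peak and 8 an untreated one. Over all genes the shares with such a neighbour were 48.1% in the R848 list and 56.9% in the untreated list, and without one 22.5% and 26.6%. In the R848 list 7 of the 11 members with a peak (63.6%) shared it with the end of another coding gene, as did 10 of 20 in the untreated list, beside 30.4% and 30.5% of all genes with a peak. At these loci the peak cannot be assigned to the synthetase gene rather than to its neighbour.

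The promoters of the 29 genes (31 listed starts) had a median GC content of 57.7% and a median of 18.0 CpG dinucleotides in 300 bases, beside 56.3% and 13.0 over 21263 promoters of coding genes. The 16 genes with a peak within 1000 bp of the start had medians of 59.0% and 19.0, and the 13 genes without had 55.8% and 16.5. The ETS motif CCGGAAG was in 11 of 31 member promoters (35.5%), against 11.6% of all promoters. The YY1 motif was in 3 (9.68%, against 1.21%), at Yars2 and at both listed starts of Aars2. CCAAT was in 15 (48.4%, against 38.2%), CACGTG in 5 (16.1%, against 7.84%) and GGGGCGGGG in 3 (9.68%, against 15.4%). No member promoter held the CRE (TGACGTCA, 2.23% of all promoters), the NRF1 motif (1.33%) or the ZNF143 motif (0.423%). All motifs were searched on both strands, and a match describes the letters only. Near matches were not counted, so sites that differ from these strings may be present.

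The C/EBP-ATF composite TGATGCAA was in 4 of 31 member promoters (12.9%, against 0.865% of all promoters), and all 4 belong to cytosolic enzymes, Aars, Iars, Tars and Yars. The match in Yars is in the promoter printed above, 3 bp after the RNA start. For the others, 48 bases around it are given, with the match in capitals, since these sequences differ outside it. They lie at chr8:111033710-111033757 (plus strand, Aars, 112 bp before the start), chr13:49682117-49682164 (plus, Iars, 7 bp after) and chr15:11399646-11399693 (minus, Tars, 15 bp before).
Aars: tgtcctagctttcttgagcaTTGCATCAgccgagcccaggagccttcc
Iars: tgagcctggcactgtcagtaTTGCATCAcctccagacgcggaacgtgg
Tars: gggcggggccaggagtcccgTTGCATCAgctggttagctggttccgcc
All of these hold the reverse complement TTGCATCA. Of the 4 genes, Yars had a KAT8 peak at the start in both lists, Aars had one in the untreated list, and Iars and Tars had none within 1000 bp of the start.

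Of 27 symbols of related genes, 25 were in the annotation, and Tars3 and Gcn1l1 were not. A gene-end peak was found at 10 of the 25 (40.0%) in the R848 list (21.1 to 61.3; 24.4% of all genes) and at 9 (36%) in the untreated list (18 to 57.5; 28.8% of all genes). Both lists had one at 6 of these (17.3% of all genes). The stress pathway that senses uncharged tRNA had peaks in both lists at Eif2ak4, which encodes GCN2 (4.14 in the R848 list and 4.81 in the untreated list), Atf4 (4.92 and 3.68) and Ddit3, which encodes CHOP (3.54 and 5.0). Gcn1, the partner of GCN2, and Trib3 and Chac1, targets of this pathway, were without a gene-end peak in both. Eef1a1, the elongation factor that carries charged tRNA to the ribosome, had folds of 4.97 and 4.22, and Tarsl2, a threonyl-tRNA synthetase-like gene, 3.59 and 3.89. Sesn2, a stress-induced mTORC1 regulator (3.87, −log10 q 2.69), and Eef1e1, a further multi-synthetase complex component (3.59, 2.07), were called after R848 alone. So were Tufm, the mitochondrial elongation factor (3.32, 1.51), and Dtd1, a D-aminoacyl-tRNA deacylase (2.49, 0.233). Pstk, a kinase of selenocysteine synthesis (3.43, −log10 q 2.28), was called in untreated cells alone. So were Prorsd1 and Asns, the asparagine synthetase and an ATF4 target (2.98 and 1.26 each). The peaks of Dtd1, Prorsd1 and Asns did not reach a q of 0.05. Genes with a gene-end peak called in 1 list alone made up 7.11% (R848) and 11.5% (untreated) of all genes. Whether occupancy of these related genes differed was not tested, with 1 library a group. Qrsl1, Gatb and Gatc, the subunits of the amidotransferase that makes mitochondrial glutaminyl-tRNA in place of a synthetase, had 0 gene-end peaks in either list.

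Other translation genes gave counts for scale. Of 48 translation initiation factor genes, 19 (39.6%, 25.8 to 54.7) had an R848 peak and 26 (54.2%, 39.2 to 68.6) an untreated peak. Of 78 mitochondrial ribosomal protein genes, 22 (28.2%, 18.6 to 39.5) and 31 (39.7%, 28.8 to 51.5) did. The intervals of the 39 members overlapped those of both lists of genes in each library.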

How the data were processed

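KAT8 CUT&Tag peaks of 2 libraries of mouse bone marrow-derived macrophages were used, 1 stimulated with R848 for 2 h and 1 untreated, grouped by the treatment label. Per the submitters' processing notes, the build was mm10 and the tools were MACS2 2.2.7.1, DiffBind and Bowtie 0.12.8, with no roles stated; the sources used here do not give caller settings or say whether a control library was used. Peak names in the R848 list carry a prefix that names both time points. The deposited lists give each peak's summit, its fold over background (a ratio), −log10 p, −log10 q (of the q-value) and a score (10 times −log10 p, to within 1). These are the authors' values. Each library has a list of its own; whether peaks were called on that library alone is not stated. The lists reach down to a −log10 p of 2.01.

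Summit pileups and backgrounds were solved from the Poisson p-value and the fold, read as (pileup + 1) over (background + 1), and the pileups were whole within 0.05 for 99.996% (R848) and 99.998% (untreated) of peaks. Peaks were assigned by any base within 1000 bp of either gene end (Python 3.11.15, pandas 2.3.3; bedtools 2.31.1 gave the same genes); the code was tested on simulated data. Binomial intervals are Clopper-Pearson, at 95% from scipy 1.17.1. No test was made, since each group had 1 library. Members of the RefSeq table (GRCm38.p6) and all lists were chosen with earlier results of these data known. The peak of 1 member is not reported here, and the other members are all named; of related genes, up to 5 with peaks in both lists by fold and those with a peak in 1 list only. Alternatives were other q thresholds, windows, overlap rules, equal list lengths and listed RNA starts, and, added after the data were seen, gene ends or starts, scaled pileups and leaving out Lars2. RNA starts and promoters of 10 members were not analysed here.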

Additional observations from a re-analysis of the deposited data

How the results depend on the processing

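Of 96 counts recomputed under 12 alternatives, 75 were within 1.5 times the reported count. With a q-value of 0.05 or less in both lists, members with an untreated peak numbered 8 (2 cytosolic and 6 mitochondrial), those with peaks in both lists 5, in the R848 list only 5 and in the untreated list only 3. The shares of all genes were 16.7%, 10.5%, 4.6% and 6.15%, in the same order. With a −log10 q of at least 5, the R848 list had 3 members (1 cytosolic, 2 mitochondrial) and the untreated list 5 (1 cytosolic, 4 mitochondrial), with 3 in both, 0 in the R848 list only and 2 in the untreated list only, where 4.39% and 5.97% of all genes had such a peak. Windows of 3000 bp gave 8 mitochondrial members with an R848 peak. Windows at listed RNA starts, which leave 29 members, gave 7 with an R848 peak (3 cytosolic), 4 cytosolic with an untreated peak and 1 in the R848 list only. An overlap of at least 50% of each peak gave 5 in the R848 list only. No other count of all members or of a class moved by over 1.5 times with lists of equal length, windows of 500 bp, summits in the window, scaled pileups, gene ends or starts together or Lars2 left out. No paired analysis was possible because each group has 1 library. Pileups of 8 to 23 fragments at members other than Lars2 and the Qrich1 side of Qars limit the precision of single peaks.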

Other observations

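Inside the genes, more than 1000 bp from either end, 12 members had a peak in the R848 list (30.8%, against 26.4% of all genes) and 14 in the untreated list (35.9%, against 28.8%); these include the start peaks of Eprs, Tars2 and Aars. The median member is 26148 bp long and the median coding gene 17169 bp, and these shares were not corrected for length. Iars2, the mitochondrial isoleucyl-tRNA synthetase, had no gene-end peak but had overlapping peaks inside the gene, with folds of 4.21 (15 fragments) in the R848 list and 3.66 (15 fragments) in the untreated list, 10046 and 9713 bp from its RNA start. Cars2 had an overlapping pair with folds of 3.78 and 4.34, 18904 and 18719 bp from its start, both stronger than its untreated gene-end peak of 2.43. Wars2 had an R848 peak of fold 4.14 at 50279 bp from its start, and Gars, the glycyl enzyme, an untreated peak of fold 3.66 at 32511 bp, each without an overlapping peak in the other list. Sars2 had overlapping peaks with folds of 3.32 and 2.48, 9631 and 9359 bp from its start. Within the gene and 1000 bp around it, neither list had a peak at Mars2, Hars2, Dars, Farsa, Farsb, Mars1, Rars, Tars, Wars or Aimp2, which makes 10 members. Farsa and Farsb encode the subunits of 1 enzyme, cytosolic phenylalanyl-tRNA synthetase, and neither had a peak within these limits.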
